A study of Arabidopsis thaliana with 43 samples.

Results

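The genes described here make the fatty acids of the Arabidopsis thaliana embryo inside its plastids and supply them with carbon. They are 35 loci of the 32507 measured, chosen by gene function from a fixed list of locus names. By role they comprise 4 nuclear subunits of plastid acetyl-CoA carboxylase (BCCP1 AT5G16390, BCCP2 AT5G15530, CAC2 AT5G35360, CAC3 AT2G38040), 8 enzymes that build the acyl chain (MCAT AT2G30200, KASI AT5G46290, KASII AT1G74960, KASIII AT1G62640, KAR AT1G24360, MOD1 AT2G05990 and the dehydratase genes AT2G22230 and AT5G10160) and 3 acyl carrier proteins (ACP1 AT3G05020, ACP4 AT4G25050, ACP5 AT5G27200). A further 5 desaturate or release the chain (SSI2 AT2G43710, AAD1 AT5G16240, AAD5 AT3G02630, FATA1 AT3G25110, FATB AT1G08510), and 2 act in its export (FAX1 AT3G57280, LACS9 AT1G77590). The remaining members are 6 subunits of plastid pyruvate dehydrogenase (PDH-E1a AT1G01090, PDH-E1b AT1G30120, LTA2 AT3G25860, EMB3003 AT1G34430, LPD1 AT3G16950, LPD2 AT4G16155), 6 genes of carbon supply (PKp-alpha AT3G22960, PKp-beta1 AT5G52920, PKp-beta2 AT1G32440, ENO1 AT1G74030, GPT1 AT5G54800, CUE1 AT5G33320) and the transcription factor WRI1 AT3G54320.

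In plants the fatty acids of both membranes and seed oil are built in the plastid. Carbon enters as glucose 6-phosphate or phosphoenolpyruvate, plastid enolase and pyruvate kinase carry it to pyruvate, and plastid pyruvate dehydrogenase turns pyruvate into acetyl-CoA. Acetyl-CoA carboxylase then makes malonyl-CoA, the elongation cycle adds carbon to a chain held on acyl carrier protein, a soluble desaturase makes the oleoyl form, and thioesterases free the chain for export. WRI1 is an AP2-type transcription factor known to activate many of these genes in seeds, and the embryo of Arabidopsis stores oil as its main reserve during the filling of the seed.

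Wild-type embryos of the Col-0 ecotype were measured at 8 stages. These were preglobular and globular embryos, then early heart and late heart, early torpedo and late torpedo, and at last the bent cotyledon and mature green embryos. Each stage had 3 biological replicates of 50 embryos, and their RNA was copied and amplified by the Smart-seq2 protocol for small inputs, at bent cotyledon from 5 ng and elsewhere from an amount the labels call unknown. Embryos were pooled, so values stand for whole embryos, and a level that is higher by more cells of a type cannot be told apart from one that is higher by more RNA per cell. The mature green titles number 3 replicates, although the sample descriptions name the first replicate each time. They were used as 3 separate samples, and spread between collections would be missing there if the RNA came from a single one.

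The 24 libraries held 8432892 to 35807605 estimated counts, the bent cotyledon libraries being the shallowest at 8432892 to 11552331. All 35 members passed the filter on low counts, and the lowest estimated count of any in a library was 28, for AAD1. Of 6 embryo markers, 5 had counts in all preglobular libraries and STM was listed at 0 there. The summed level of 9 endosperm markers averaged 1.04 to 9.51 CPM by stage and that of 10 seed coat markers 6.74 to 18.9 CPM, against 186 to 709 CPM for the embryo markers. PHE1, IKU2 and TAR1 of endosperm and TT16, TT2, PER36 and TT1 of seed coat were at 0 at bent cotyledon. Of the 9 endosperm markers 4, and of the 10 seed coat markers 3, had counts in all 3 bent cotyledon libraries. At the stages from preglobular to late torpedo these numbers were 4 to 6 and 7 to 8, and at mature green they were 3 and 3. The part of such RNA in the stage differences was not tested. Levels are CPM, the count scaled to library size with TMM factors, or TPM, which also divides by transcript length, where members are compared with each other. A member is called higher or lower where edgeR's quasi-likelihood test over all 21014 tested loci gave a Benjamini-Hochberg adjusted p under 0.05.

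Since WRI1 is a member, the gene starts of the 35 loci were searched for its known binding motif. The windows covered 250 bases before and 50 bases after each gene start in the RefSeq annotation of assembly TAIR10.1, and were read on both strands for the AW-box, which is CNTNG, then 7 bases of any kind, then CG. The motif stood in the windows of 10 of 35 members (28.6%), against 11.9% of all 27443 windows of the same length. The 10 sites are printed in 30 bases each, read in the direction that gives the motif, with the 5 fixed letters of the AW-box in capitals. They are given because the genes that carry them span 6 of the 8 roles, and because the stretches printed for the carriers ACP1 and ACP5, flanks included, are nearly the same.
CAC3 (chr2:15917026-15917055, plus strand): aggagtcaCgTgGgcacgtgCGagagagca
AT2G22230 (chr2:9449955-9449984, plus strand): acacaaacCtTtGtactctcCGctccttca
ACP1 (chr3:1392928-1392957, minus strand): ttcacgctCtTtGtacactcCGccctctct
ACP5 (chr5:9571139-9571168, plus strand): ttcacgctCcTtGaacaatcCGccatctct
LACS9 (chr1:29152522-29152551, plus strand): ccaattctCaTtGcacaaaaCGctcttatt
PDH-E1a (chr1:49365-49394, minus strand): gaaaaaaaCaTtGgtgttaaCGaagaaggg
PDH-E1b (chr1:10586662-10586691, plus strand): catgtttaCaTtGttttcatCGaactcatg
LPD2 (chr4:9157219-9157248, minus strand): catctccgCtTtGatatctcCGcctccgct
ENO1 (chr1:27842195-27842224, plus strand): ccgtcgccCgTcGccgccgcCGccacacta
CUE1 (chr5:12588728-12588757, minus strand): taaaccttCgTtGaaaagtcCGccttttaa

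The ACP1 and ACP5 stretches were identical at 26 of 30 bases, although the motif begins 5 bases after the gene start in ACP1 and 38 bases before it in ACP5. No other pair was compared in this way, and within the motif alone AT2G22230 is also close to ACP1. By role the motif was found in 1 of 4 carboxylase subunits, 1 of 8 chain-building genes, 2 of 3 carriers, 0 of 5 desaturases and thioesterases, 1 of 2 export genes, 3 of 6 pyruvate dehydrogenase subunits and 2 of 6 carbon supply genes. WRI1 itself had none in its window. The G-box CACGTG, bound by bZIP and bHLH factors, stood in 5 of 35 windows (14.3%, against 7.68% of all windows), and 4 of these also held an AW-box. In CAC3 both G-boxes overlap the AW-box. The AW-boxes of ACP5, LACS9, PDH-E1a, LPD2 and ENO1 lie before the gene start, those of PDH-E1b and CUE1 span it, and those of CAC3, AT2G22230 and ACP1 lie in the first transcribed bases. The RY element CATGCA, bound by the B3 factors LEC2, FUS3 and ABI3, stood in 2 of 35 (5.71%, against 9.72%), those of ACP5 and LACS9. A match describes letters in the window only.

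The 35 genes together took 0.241% of all TPM at preglobular, 0.339% at globular, 0.545% at early heart, 0.688% at late heart, 0.895% at early torpedo, 1.02% at late torpedo, 1.42% at bent cotyledon and 0.527% at mature green. The sum therefore climbed at every step to bent cotyledon and was lower at mature green. Of the members, 27 had their highest mean CPM at bent cotyledon, where 11.4% of all tested loci had theirs. SSI2, AAD1, AAD5, FATA1 and GPT1 peaked at mature green on this TMM scale (30.9% of all loci), ACP4 at late torpedo, and FAX1 and PKp-beta2 at preglobular. In TPM the highest mean of FAX1 was instead at early heart, with 40.2 TPM against 33.3 TPM at preglobular. All 35 differed over the 8 stages in edgeR's quasi-likelihood F test, as did 91.1% of all tested loci.

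**Figure D1:**
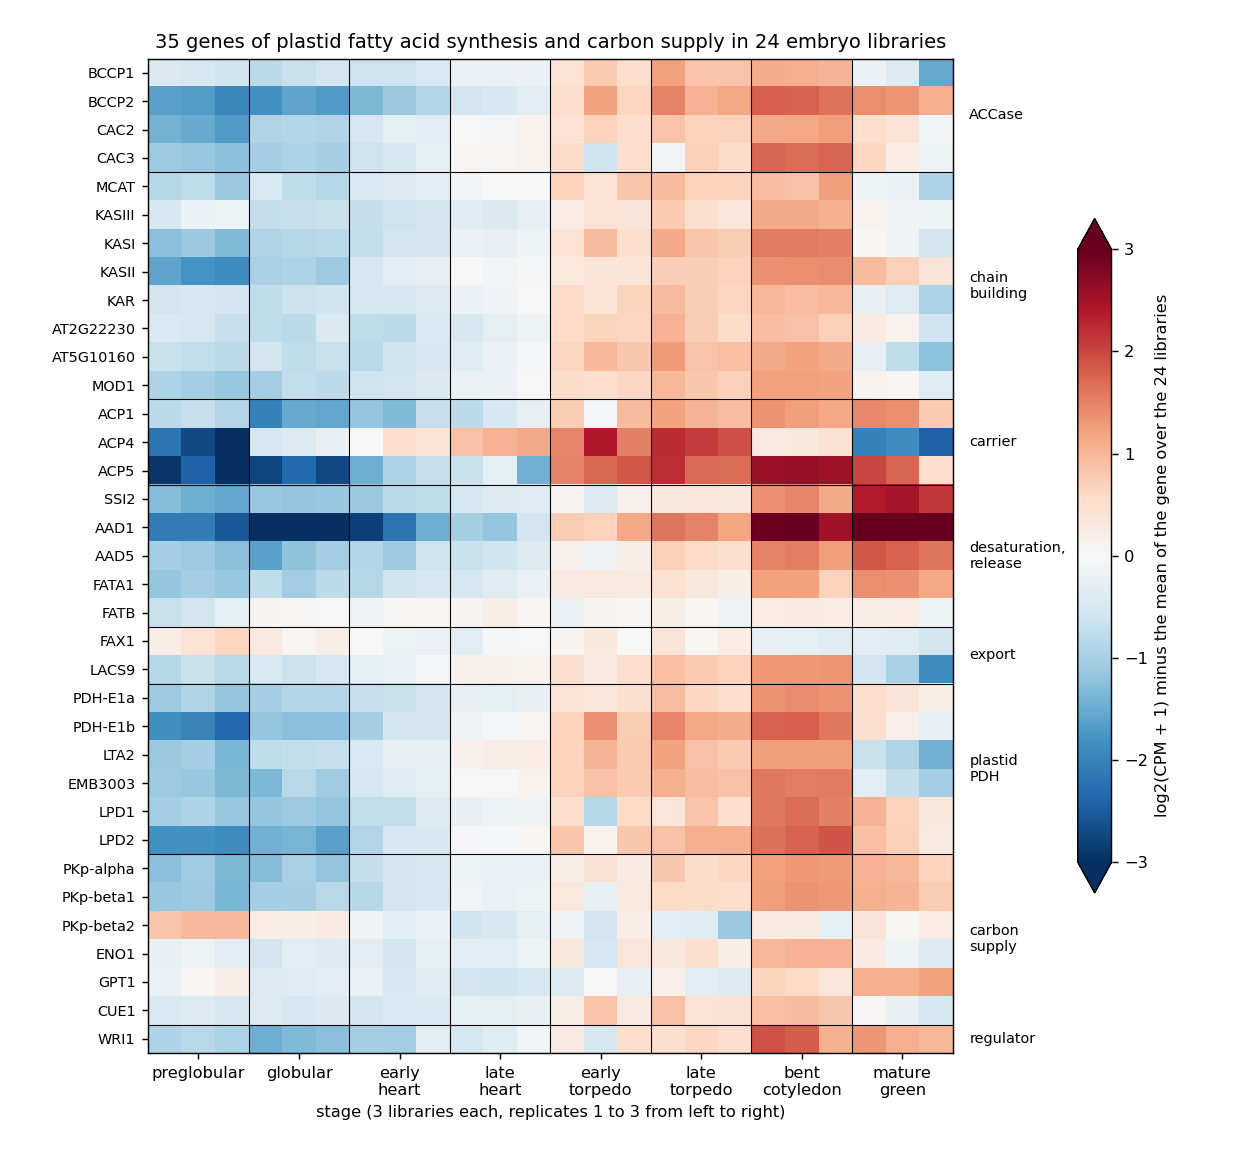
Level of each of the 35 genes (rows, by role) in each of the 24 libraries (columns, by stage), as log2(CPM + 1) minus the gene's mean over the libraries, from blue for low to red for high. Most rows are lowest at preglobular or globular and highest at bent cotyledon. On this TMM scale FAX1 and PKp-beta2 are highest at preglobular, and SSI2, AAD1 and AAD5 are highest at mature green. On library totals AAD1 and AAD5 were not higher at mature green than at bent cotyledon, and in TPM FAX1 was highest at early heart.

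The carrier ACP1 had the highest mean TPM of the members at all 8 stages. It held 21.9% of the members' summed TPM at preglobular, 17.8% at bent cotyledon (2521 TPM) and 27.9% at mature green (1472 TPM). At mature green the second place was taken by the desaturase SSI2 with 422 TPM. At bent cotyledon ACP5 came next with 1168 TPM, followed by PDH-E1a with 799 TPM and PDH-E1b with 794 TPM. The 5 members with the highest TPM held 52.1% of the members' sum at mature green, against 42.7% at bent cotyledon. The profiles were alike to different degrees: over the 8 stage means, PDH-E1a followed the mean profile of the members most closely (r = 0.997), while FAX1 (r = −0.45) and PKp-beta2 (r = −0.44) ran against it. These correlations share the libraries and each member is part of the mean profile, so they are a description only.

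With TMM factors, the steps into early torpedo and bent cotyledon had the most members called higher. Early torpedo against late heart had 24 members called higher and 0 lower, where 13.3% of all tested loci were called higher and 5.76% lower, and the largest rises were those of ACP5, AAD1 and BCCP2. Late heart against early heart had 2 called higher (AAD1 and BCCP2) and 0 lower, against 1.22% and 1.23% of all loci. Early heart against globular had 8 higher and 0 lower, against 8.57% and 9.03%, led by AAD1, ACP5 and LPD2. Globular against preglobular had 5 higher and 4 lower, against 11.4% and 12.2%, so its counts stand near the background; ACP4, PDH-E1b and KASII rose most and AAD1, ACP1 and PKp-beta2 fell most. On library totals the early heart and globular steps had 22 and 13 members higher, where the median of all loci moved to 0.29 and 0.27, and on log2(TPM + 1) they had 27 and 21, so the order of the steps by calls depends on the scale. Of the 4 falls at globular, that of AAD1 was called on both scales and the other 3 were not. The 2 calls at late heart were lost when early heart replicate 1, early heart replicate 2 or late heart replicate 3 was left out, and DESeq2 called 11 members higher there. The median log2 difference of the members was 0.13, 0.33, 0.39 and 0.65 at these 4 steps in the order of development, and that of all tested loci lay between 0 and 0.04. The count at early torpedo depends on scaling: 14 members were called higher on library totals and 7 on log2(TPM + 1), where the median of all tested loci moved to −0.21 and −0.32 and that of the members to 0.41 and 0.17; 13 of 35 members had negative signs on log2(TPM + 1), among them KASII, SSI2 and PKp-alpha, which were called higher with TMM factors, and FATB, which was called lower, against 1 of 35 (FATB, not called) with TMM factors.

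Late torpedo against early torpedo had 0 members called higher or lower in edgeR's quasi-likelihood test, where 0.666% of all loci were called higher and 0.466% lower. Of the members, 10 were higher and 1 lower at an unadjusted p under 0.05, and DESeq2 called 3 higher. The median log2 difference was 0.25 and 34 of 35 members lay above 0. Bent cotyledon against late torpedo had 22 members called higher and 2 lower (ACP4 and FAX1), against 13.7% and 19.7% of all loci, the largest rises being those of AAD1, CAC3 and WRI1. Mature green against bent cotyledon had 3 higher and 25 lower, against 27.2% and 28.2% of all loci, with a median of −1.003 for the members and 0.01 for all loci. The 3 higher ones were SSI2, AAD1 and GPT1, none of them called higher on library totals, where AAD1 and GPT1 had negative signs, and ACP4, LACS9 and LTA2 fell most.

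Across the whole rise, bent cotyledon against preglobular had 33 members higher and 2 lower, against 34.3% and 33% of all loci, with a median log2 difference of 2.43. ACP5, AAD1 and PDH-E1b rose most, and PKp-beta2 and FAX1 fell. These counts were the same under each of the alternatives tried and without any 1 of the libraries of the 2 stages, although the median of all tested loci was 0.02 with TMM factors, 0.24 on library totals and 0.13 on log2 TPM. Mature green against preglobular had 25 higher and 2 lower, against 38.5% and 37.4% of all loci, with a median of 1.12; on library totals it had 20 higher and 9 lower with a median of 0.53, and on log2(TPM + 1) 20 and 7 with 0.57. With TMM factors the largest rises were those of AAD1, ACP5 and SSI2. In bent cotyledon against preglobular the 3 libraries of each stage did not overlap for any of the 35 members, 33 being higher in all and 2 lower in all (36.3% and 35% of all loci). In mature green against bent cotyledon 4 members were higher and 26 lower without overlap (29.9% and 30.2% of all loci).

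**Figure D2:**
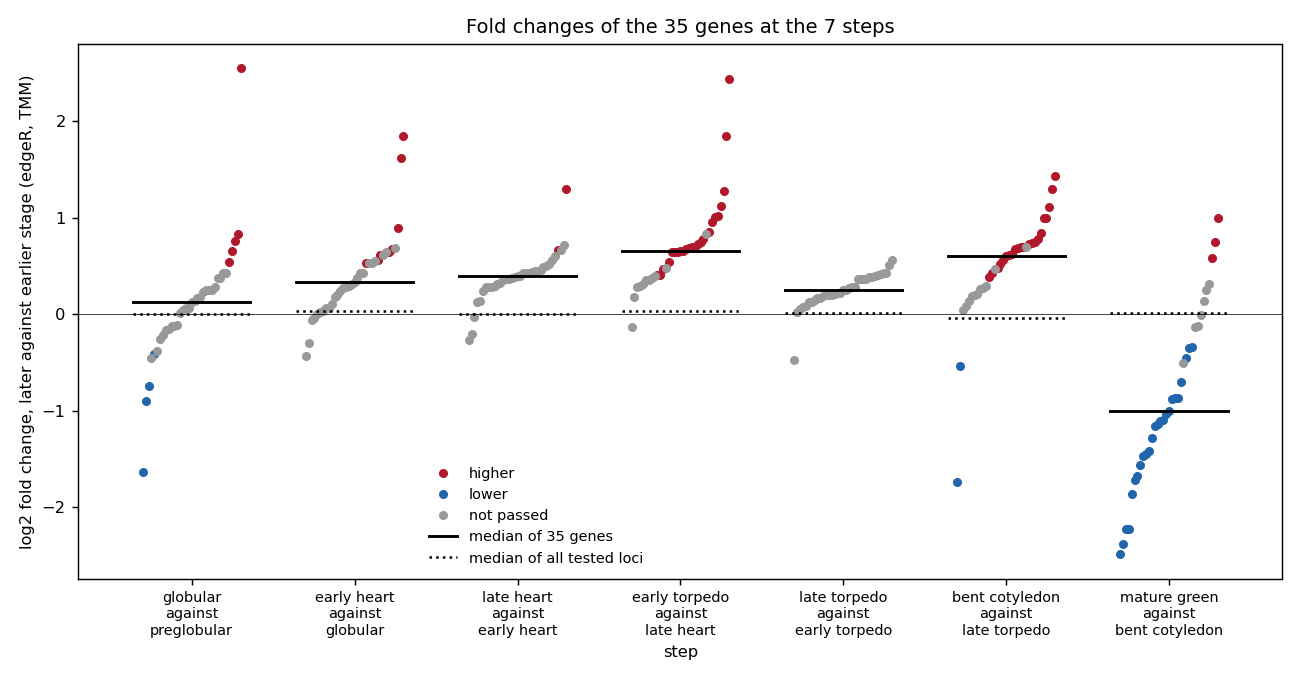
Log2 fold change of the 35 genes at the 7 steps between neighbouring stages, later over earlier; each point is a gene, red where edgeR called it higher, blue where lower and grey where it did not pass, with the median of the 35 genes (solid line) and of all tested loci (dotted line). Points sit mostly above 0 until bent cotyledon, with 24 called higher at early torpedo and 22 at bent cotyledon, and mostly below 0 at mature green, with 25 called lower.

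The carboxylase subunits rose together but not alike. BCCP1 and BCCP2 are the biotin carrier subunits, CAC2 is the biotin carboxylase and CAC3 the alpha subunit of the carboxyltransferase. BCCP2 averaged 83.9 ± 10.3, 86.2 ± 7.19, 131 ± 20.8, 208 ± 16.7, 502 ± 129.7, 674 ± 107, 940.1 ± 52.9 and 688 ± 71.3 CPM from preglobular to mature green (SD, n = 3 at each stage). BCCP1 averaged 179.5 ± 9.66, 160.4 ± 13.3, 172 ± 12.6, 222 ± 3.56, 382 ± 48.9, 508 ± 78.5, 538 ± 19.4 and 168 ± 72.0 CPM over the same stages. Per length, BCCP2 held 54.1% ± 3.00 of the TPM of the pair at early torpedo, against 46.0% ± 1.59 at late heart, so it overtook BCCP1 between these stages. At bent cotyledon BCCP2 had 977, 964 and 879 CPM in the 3 libraries, against 91.7, 87.7 and 72.2 CPM at preglobular, a log2 difference of 3.49 (SE 0.18, adjusted p = 2.39e-12). BCCP1 had 555, 540.4 and 517 CPM at bent cotyledon, against 187, 183 and 169 CPM at preglobular, a log2 difference of 1.58 (SE 0.22, adjusted p = 1.50e-06). The 3 libraries of each stage did not overlap for either gene.

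At mature green the pair separated further. BCCP1 fell to 226, 191 and 87.3 CPM at mature green, against 555, 540.4 and 517 CPM at bent cotyledon, a log2 difference of −1.68 (SE 0.22, adjusted p = 1.19e-06). BCCP2 fell to 744, 712 and 607 CPM at mature green, against 977, 964 and 879 CPM at bent cotyledon, a log2 difference of −0.45 (SE 0.17, adjusted p = 0.025). Mature green replicate 3 was the lowest for both, and without it the call for BCCP2 was lost. BCCP2 held 79.5% ± 6.02 of the TPM of the pair at mature green and 61.4% ± 0.579 at bent cotyledon, against 29.8% ± 1.51 at preglobular (SD, n = 3). The share differed over the 8 stages in a permutation test of 100000 resamples (adjusted p = 1.8e-05 over the 11 shares tested).

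CAC2 and CAC3 both peaked at bent cotyledon. CAC2 averaged 166, 261, 377, 494, 716, 818, 1102 and 602 CPM from preglobular to mature green and was called higher already at globular (log2 difference 0.65, SE 0.13, adjusted p = 0.0012) and again at early heart (log2 difference 0.53, SE 0.13, adjusted p = 0.0092). CAC3 had 734, 694 and 738 CPM at bent cotyledon, against 206, 356 and 322 CPM at late torpedo, a log2 difference of 1.29 (SE 0.24, adjusted p = 0.000254). No library of the 2 stages overlapped, and among members the step was second in size to that of AAD1. At mature green all 4 subunits were lower than at bent cotyledon, CAC3 by 2.74-fold. The fourth kind of subunit, the carboxyltransferase beta subunit, is encoded by accD in the plastid genome and is not a member: its mean was 503 ± 108 CPM at bent cotyledon, against 116 ± 15.9 CPM at preglobular (SD, n = 3 each), a log2 difference of 2.11 (SE 0.24, adjusted p = 1.23e-07), and at mature green it was lower than at bent cotyledon (log2 difference −1.42, SE 0.24, adjusted p = 2.84e-05).

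**Figure D3:**
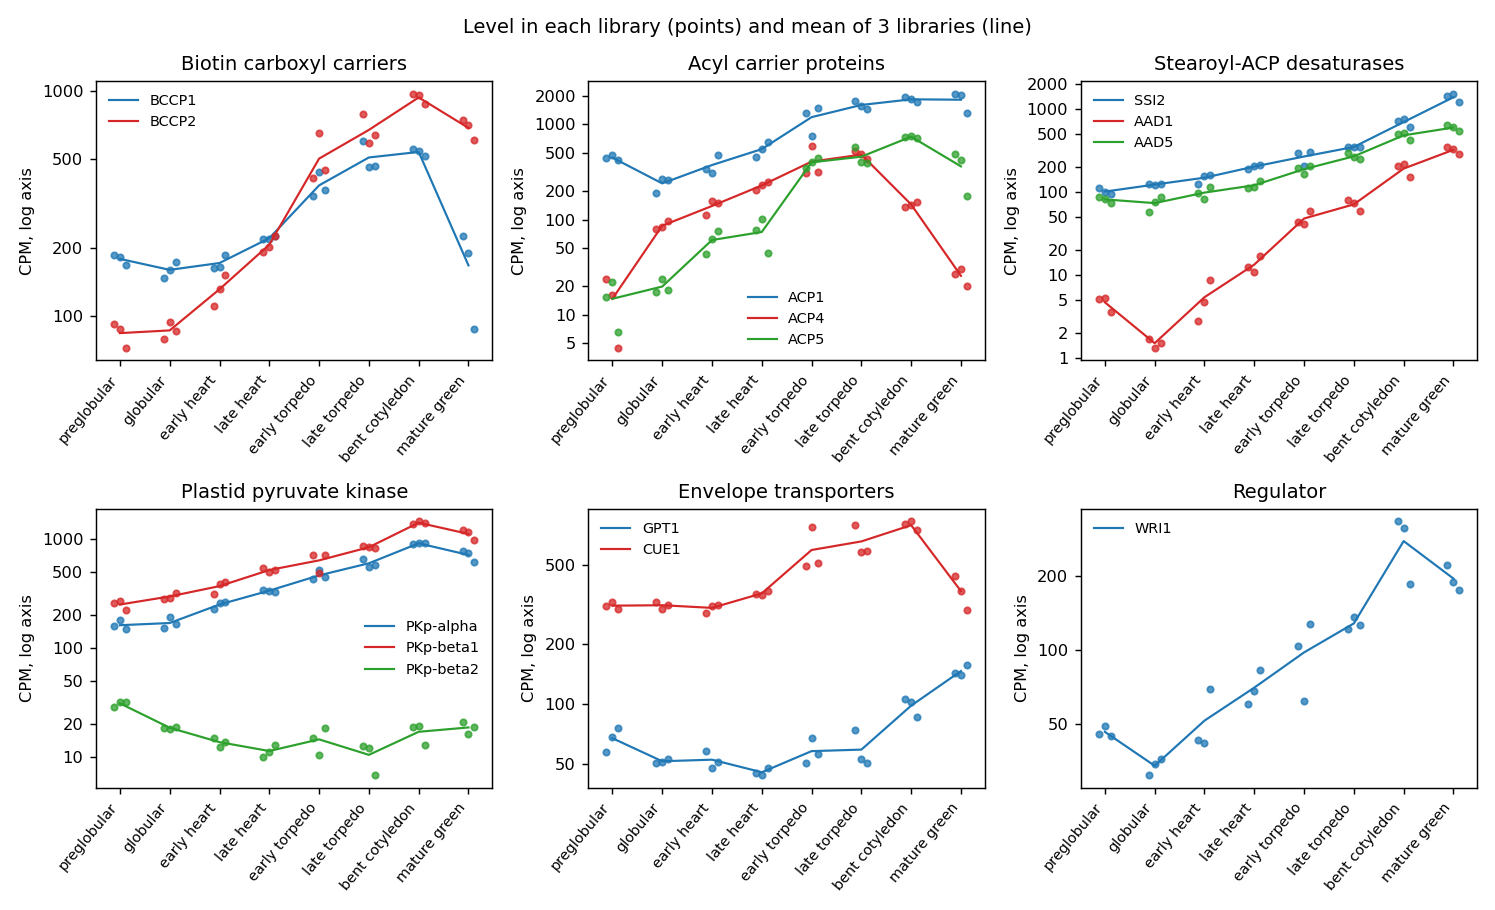
Levels of 14 genes in CPM on a log axis at the 8 stages, in 6 panels; points are the single libraries and lines join the means of 3. BCCP2 passes BCCP1 on the way to bent cotyledon, ACP4 peaks at late torpedo, SSI2, AAD1, AAD5 and GPT1 are highest at mature green on the TMM scale (on library totals AAD1, AAD5 and GPT1 lay below bent cotyledon there), and PKp-beta2 is highest at preglobular.

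All 8 chain-building enzymes were called higher at bent cotyledon against preglobular and lower at mature green against bent cotyledon, on TMM factors, library totals and log2 TPM alike. At early torpedo against late heart 8 of 8 were called higher with TMM factors, 5 on library totals and 3 on log2(TPM + 1), where the sign of KASII turned. MCAT makes malonyl-ACP, KASIII starts the chain, KASI lengthens it and KASII makes the last elongation in the plastid. KAR, the dehydratases and the enoyl reductase MOD1 reduce and dehydrate the added unit. KASI averaged 245 ± 17.0, 318 ± 10.3, 375 ± 25.6, 503 ± 20.8, 910.2 ± 180.3, 1086 ± 153, 1678 ± 23.7 and 508 ± 102 CPM from preglobular to mature green (SD, n = 3). It had 1691, 1692 and 1651 CPM in the bent cotyledon libraries, against 241, 263 and 230.0 CPM at preglobular, a log2 difference of 2.78 (SE 0.16, adjusted p = 6.44e-12). At mature green it had 591, 539 and 394 CPM, below all bent cotyledon libraries (log2 difference −1.72, SE 0.15, adjusted p = 5.24e-09).

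KASII averaged 69.6, 117, 184, 229.7, 304, 390.0, 625 and 384 CPM over the 8 stages and rose at globular (log2 difference 0.75, SE 0.12, adjusted p = 0.000142) and early heart (log2 difference 0.65, SE 0.12, adjusted p = 0.00125). KASIII averaged 121, 90.7, 94.6, 115, 186, 215, 318 and 142 CPM over the same stages. It fell at globular, with 88.4, 91.1 and 92.6 CPM against 105, 127 and 131 CPM at preglobular (log2 difference −0.42, SE 0.12, adjusted p = 0.0118), although its sign turned when log2 TPM was used. With TMM factors the condensing enzymes were first called higher at different steps, KASII at globular and KASIII at early torpedo. MOD1 averaged 248, 281, 353, 464, 752, 910.0, 1188 and 487 CPM and KAR 329, 304, 345, 452, 707, 824, 948 and 343 CPM, both with the lowest level at preglobular or globular and the highest at bent cotyledon. Between mature green and bent cotyledon the log2 difference was −1.86 for AT5G10160, −1.47 for KAR, −1.29 for MOD1 and −0.88 for AT2G22230, and all 4 were called lower.

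The 2 dehydratase genes shifted against each other at the last step. AT5G10160 held 48.5% ± 3.29 of the pair's TPM at mature green, with 51.5, 45.0 and 49.1% in the 3 libraries. At bent cotyledon it held 65.4% ± 1.70, with 63.7, 65.2 and 67.1% in the libraries, all above those of mature green. The share differed over the stages (permutation test, adjusted p = 2.7e-05). Compared with preglobular, at mature green KASI, KASII, MOD1, MCAT and AT2G22230 were called higher, although the signs of MCAT and AT2G22230 turned on library totals and on log2 TPM.

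The 3 acyl carrier proteins followed 3 different courses. Acyl carrier protein holds the growing chain through a phosphopantetheine arm. ACP1 averaged 448 ± 29.5, 240.2 ± 44.3, 375 ± 90.8, 551 ± 97.9, 1194 ± 390.0, 1603 ± 159.6, 1837 ± 121 and 1820.3 ± 428 CPM from preglobular to mature green (SD, n = 3). ACP4 averaged 14.7 ± 9.58, 86.2 ± 8.64, 139 ± 24.7, 229 ± 21.0, 407 ± 161, 482 ± 50.6, 144 ± 9.21 and 25.7 ± 5.12 CPM over these stages. ACP5 averaged 14.7 ± 7.88, 19.8 ± 3.47, 61.0 ± 16.4, 74.1 ± 27.9, 400.1 ± 52.6, 459 ± 102, 744 ± 17.1 and 363 ± 166 CPM. ACP1 thus dipped at globular and then climbed to the last 2 stages, ACP4 was highest at late torpedo, and ACP5 stayed low to late heart and was highest at bent cotyledon.

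ACP4 had 79.1, 83.7 and 95.8 CPM at globular, against 23.5, 16.2 and 4.50 CPM at preglobular. Every globular library lay above every preglobular one, and the log2 difference of 2.55 (SE 0.36, adjusted p = 3.78e-05) was the largest rise of any member at that step. At the same step ACP1 fell to 189, 270.0 and 261 CPM at globular, against 446, 479 and 419.9 CPM at preglobular (log2 difference −0.90, SE 0.23, adjusted p = 0.00661), again without overlap, a call lost on library totals (−0.63) and on log2 TPM (−0.41). At bent cotyledon ACP4 had 137, 141 and 154 CPM, against 532, 485 and 431 CPM at late torpedo (log2 difference −1.74, SE 0.35, adjusted p = 0.00058). It fell again to 26.7, 30.2 and 20.1 CPM at mature green, against 137, 141 and 154 CPM at bent cotyledon (log2 difference −2.49, SE 0.36, adjusted p = 5.69e-06). This was the largest fall of any member at each of these 2 steps, and at the first of them FAX1 was the only other member called lower.

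ACP5 had 345, 406 and 449 CPM at early torpedo, against 76.9, 101 and 45.0 CPM at late heart (log2 difference 2.43, SE 0.38, adjusted p = 0.000323), the largest rise of any member at that step. At bent cotyledon it had 744, 761 and 727 CPM, against 15.3, 22.3 and 6.56 CPM at preglobular, a 50.5-fold higher level (log2 difference 5.66, SE 0.44, adjusted p = 4.87e-10). The mature green libraries had 494, 418 and 176 CPM, and ACP5 was called lower than at bent cotyledon (log2 difference −1.04, SE 0.36, adjusted p = 0.0197), a call lost without mature green replicate 3. ACP1 had 2104, 2029 and 1328 CPM at mature green, against 1959, 1836 and 1717 CPM at bent cotyledon, and the libraries overlapped (log2 difference −0.01, SE 0.23, adjusted p = 0.974), but on library totals it was called lower (−0.81). Of the TPM of the 3 carriers, ACP5 held 30.5% ± 1.14 at bent cotyledon, against 3.42% ± 1.61 at preglobular. ACP4 held 19.8% ± 0.954 at late heart, against 2.08% ± 1.30 at preglobular, and was at 0.794% ± 0.0988 at mature green (SD, n = 3). Both shares differed over the stages (permutation test, adjusted p = 1.8e-05 for ACP5 and 4.9e-05 for ACP4).

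**Figure D4:**
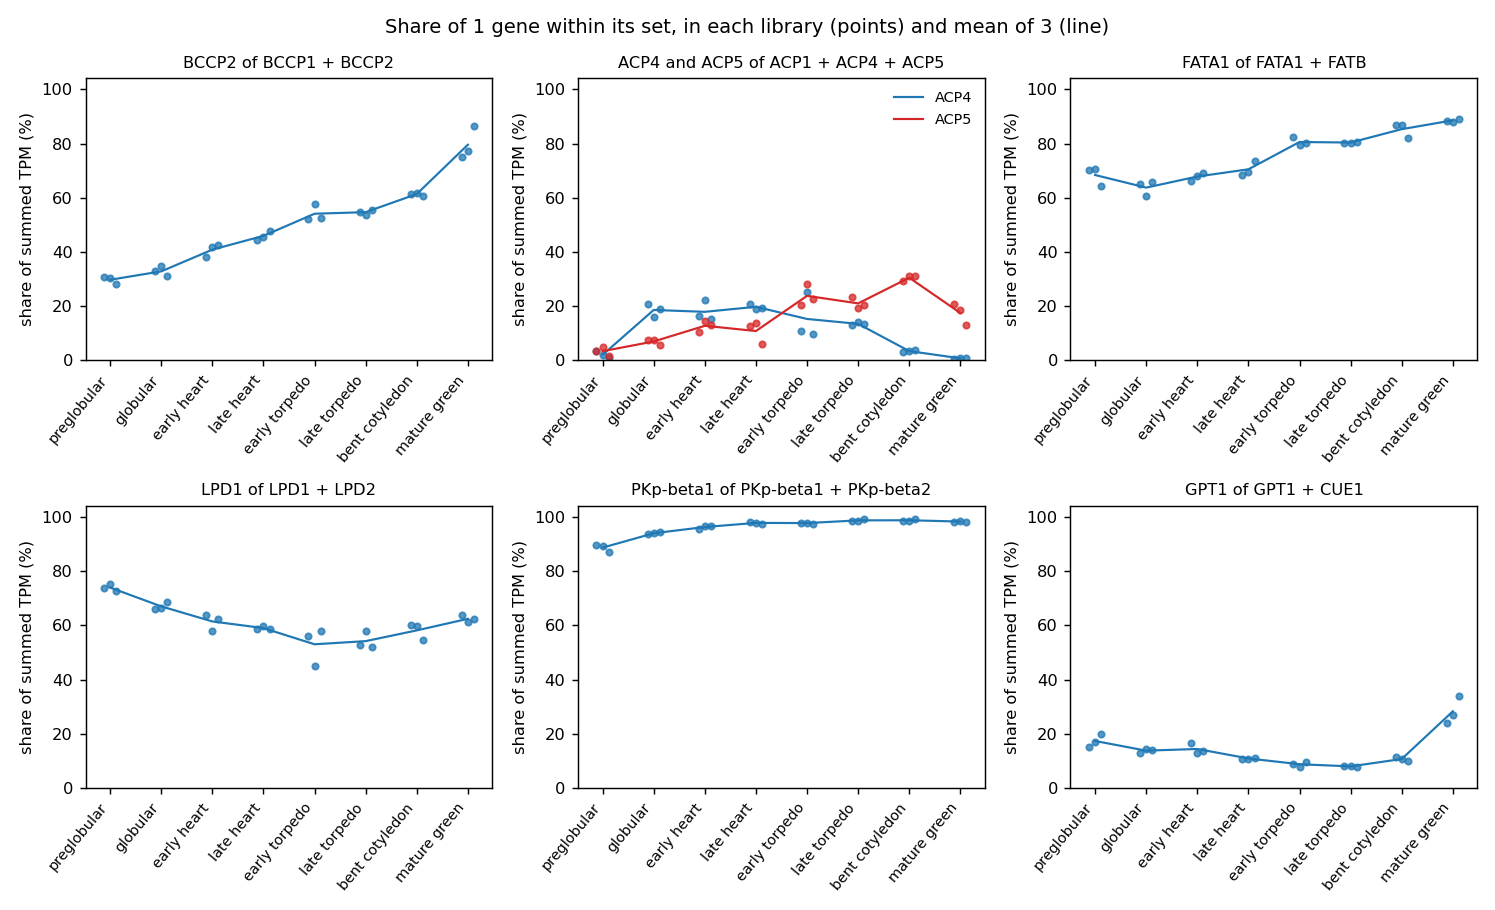
Share of the summed TPM taken by 1 gene of a set of related genes, in percent, at the 8 stages; points are single libraries and lines join the means of 3. BCCP2 reaches 79.5% of its pair at mature green, ACP4 holds 13.5 to 19.8% of the carriers between globular and late torpedo and 0.794% at mature green, and FATA1 reaches 88.5% of its pair.

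On the TMM scale none of the 3 desaturases was called lower at mature green than at bent cotyledon, whereas on library totals AAD5 was (−0.49). SSI2 is the main stearoyl-ACP desaturase, which makes oleoyl-ACP, and AAD1 and AAD5 are its relatives. SSI2 averaged 102 ± 9.26, 124 ± 2.55, 150.5 ± 19.5, 205 ± 11.2, 271 ± 53.1, 353 ± 3.01, 705 ± 80.6 and 1402 ± 169 CPM from preglobular to mature green (SD, n = 3). It had 1444, 1545 and 1216 CPM at mature green, against 724, 774 and 616 CPM at bent cotyledon, without overlap (log2 difference 0.99, SE 0.14, adjusted p = 4.53e-06). On library totals its log2 difference at this step was 0.19 and was not called. At bent cotyledon it was already higher than at late torpedo, where it had 350.5, 356 and 353 CPM (log2 difference 0.996, SE 0.14, adjusted p = 1.75e-05).

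With TMM factors AAD1 was called higher at every step from early heart to mature green except late torpedo, and at globular it was called lower. It averaged 4.75 ± 0.949, 1.53 ± 0.180, 5.47 ± 3.03, 13.5 ± 3.05, 48.5 ± 9.12, 71.8 ± 10.4, 194 ± 34.96 and 326 ± 31.7 CPM over the 8 stages. It had 1.71, 1.35 and 1.53 CPM at globular, against 5.26, 5.34 and 3.65 CPM at preglobular (log2 difference −1.64, SE 0.33, adjusted p = 0.00101). It then had the largest rise of the members at early heart (log2 difference 1.85, SE 0.32, adjusted p = 0.00065), late heart (log2 difference 1.30, SE 0.27, adjusted p = 0.0114) and bent cotyledon (log2 difference 1.43, SE 0.26, adjusted p = 0.000287). At late torpedo its log2 difference of 0.57 was also the largest of the members but was not called. At mature green AAD1 had 351, 338 and 290.4 CPM, against 5.26, 5.34 and 3.65 CPM at preglobular, a 68.5-fold higher level (log2 difference 6.10, SE 0.33, adjusted p = 6.56e-13). Mature green libraries also lay above those of bent cotyledon, which had 208, 219 and 154 CPM (log2 difference 0.75, SE 0.26, adjusted p = 0.018), but on library totals the sign turned (−0.05). AAD5 averaged 82.4, 74.4, 99.5, 122, 191, 272, 487 and 605 CPM over the stages and its share of the trio's TPM was 27.5% ± 1.28 at mature green, against 45.5% ± 0.662 at preglobular (adjusted p = 0.00032, permutation test).

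The 2 thioesterases parted as the embryo grew. FATA1 frees mainly oleate, and FATB frees mainly saturated chains. FATA1 averaged 45.3 ± 2.47, 53.9 ± 5.99, 62.0 ± 7.35, 76.7 ± 8.73, 120.4 ± 1.74, 125 ± 11.4, 206 ± 40.5 and 246 ± 21.0 CPM from preglobular to mature green, and FATB averaged 28.7 ± 4.26, 41.7 ± 1.06, 40.0 ± 2.13, 43.7 ± 2.07, 39.8 ± 4.23, 41.8 ± 4.24, 47.7 ± 0.312 and 43.5 ± 5.67 CPM (SD, n = 3). FATA1 had 232, 227 and 159.7 CPM at bent cotyledon, against 43.4, 48.1 and 44.3 CPM at preglobular (log2 difference 2.19, SE 0.14, adjusted p = 4.24e-11). FATB had 47.5, 48.0 and 47.4 CPM at bent cotyledon, against 25.3, 27.4 and 33.5 CPM at preglobular (log2 difference 0.73, SE 0.12, adjusted p = 1.92e-05). With TMM factors most of the FATB rise came at globular (log2 difference 0.54, SE 0.12, adjusted p = 0.00239), and its later stage means lay between 39.8 and 47.7 CPM. This later course depends on the scale. In TPM FATB averaged 9.99 at preglobular, 25.2 at late heart, 16.5 at early torpedo, 19.25 at bent cotyledon and 10.5 at mature green. On log2(TPM + 1) it was called lower at early torpedo against late heart. FATA1 held 88.5% ± 0.529 of the TPM of the pair at mature green, against 63.7% ± 2.73 at globular, where it was lowest (adjusted p = 1.8e-05, permutation test).

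The export genes were called in opposite directions at bent cotyledon against preglobular. FAX1 carries fatty acids across the inner envelope, and LACS9 activates them to acyl-CoA at the outer envelope. FAX1 had 30.7, 29.8 and 28.2 CPM at bent cotyledon, against 42.3, 50.0 and 57.3 CPM at preglobular, lower without overlap (log2 difference −0.75, SE 0.14, adjusted p = 5.11e-05). LACS9 had 461, 460.1 and 468 CPM at bent cotyledon, against 102, 116 and 105 CPM at preglobular (log2 difference 2.11, SE 0.20, adjusted p = 1.01e-08). At mature green LACS9 fell to 124, 93.4 and 49.1 CPM, against 461, 460.1 and 468 CPM at bent cotyledon, a 5.22-fold lower level (log2 difference −2.38, SE 0.20, adjusted p = 3.58e-09). The bent cotyledon libraries were tightly grouped and the mature green ones were spread, with replicate 3 lowest. LACS9 is deposited as 2 transcripts, and the second held 13.8, 27.7 and 13.3% of the locus TPM at mature green, against 6.49, 5.37 and 3.63% at bent cotyledon, without overlap and with no test made.

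All 6 pyruvate dehydrogenase subunits rose together to bent cotyledon and were lower at mature green. PDH-E1a and PDH-E1b form the E1 component, LTA2 and EMB3003 are E2 subunits, and LPD1 and LPD2 are E3 subunits. PDH-E1a averaged 309 ± 31.2, 339.7 ± 18.9, 414 ± 20.9, 538 ± 12.5, 859 ± 35.7, 1041 ± 149, 1662 ± 51.6 and 829 ± 101 CPM from preglobular to mature green (SD, n = 3). PDH-E1b averaged 106 ± 18.3, 188 ± 6.64, 272 ± 45.0, 432 ± 22.2, 868 ± 243, 1049 ± 138, 1449 ± 119 and 489 ± 121 CPM. The beta subunit had the larger log2 difference, with 1507, 1528 and 1313 CPM at bent cotyledon against 122, 109 and 86.1 CPM at preglobular (log2 difference 3.78, SE 0.21, adjusted p = 6.35e-12), than the alpha subunit (log2 difference 2.43, SE 0.12, adjusted p = 1.96e-12). The difference between the subunits was not tested.

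The E2 subunits had the lowest log2 differences of the complex at mature green. LTA2 had 216, 182 and 126 CPM at mature green, against 820.1, 814 and 817 CPM at bent cotyledon (log2 difference −2.23, SE 0.16, adjusted p = 3.43e-10). EMB3003 had 208, 156 and 125 CPM at mature green, against 773, 749 and 768 CPM at bent cotyledon (log2 difference −2.23, SE 0.16, adjusted p = 2.18e-10). Both sets of libraries were fully apart. LTA2 was not called at mature green against preglobular (log2 difference 0.19, SE 0.16, adjusted p = 0.266), the other 5 subunits were higher, and on library totals LTA2 and EMB3003 turned to negative signs. Of the E3 pair, LPD2 averaged 23.8, 30.8, 57.0, 86.7, 135, 177, 303 and 138 CPM and LPD1 93.0, 85.5, 124, 171, 224, 288, 576 and 315 CPM over the stages. LPD1 held 53.1% ± 7.08 of their TPM at early torpedo, against 74.0% ± 1.26 at preglobular (adjusted p = 1.8e-05, permutation test). With TMM factors LPD2 was first called among the steps at early heart (log2 difference 0.89, SE 0.17, adjusted p = 0.00148) and LPD1 at bent cotyledon (log2 difference 0.998, SE 0.25, adjusted p = 0.00377). On log2(TPM + 1) all 6 subunits, LPD1 among them, were called higher at early heart against globular, so this order depends on the scale.

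Of the 6 carbon supply genes, 5 were higher and PKp-beta2 was lower at bent cotyledon against preglobular. Plastid pyruvate kinase is made of an alpha chain and beta chains. PKp-beta1 averaged 251 ± 25.2, 298 ± 22.6, 371 ± 48.9, 521 ± 23.1, 639 ± 129.7, 844 ± 21.7, 1417 ± 35.9 and 1118 ± 124 CPM from preglobular to mature green, and PKp-alpha 162 ± 16.0, 170.1 ± 20.5, 252 ± 18.0, 337 ± 6.26, 465 ± 45.9, 601 ± 56.2, 917 ± 19.3 and 717 ± 90.4 CPM (SD, n = 3). At mature green PKp-beta1 had 1212, 1165 and 978 CPM, against 1385, 1456 and 1411 CPM at bent cotyledon (log2 difference −0.34, SE 0.14, adjusted p = 0.0435). PKp-alpha had 784, 752 and 614 CPM at mature green, against 895, 931 and 925 CPM at bent cotyledon (log2 difference −0.36, SE 0.12, adjusted p = 0.018). Both calls were lost without mature green replicate 3, the lowest library of its stage. PKp-beta2 had 18.9, 19.4 and 12.9 CPM at bent cotyledon, against 29.1, 32.0 and 32.3 CPM at preglobular, a fall without overlap (log2 difference −0.87, SE 0.21, adjusted p = 0.00112). PKp-beta1 held 98.8% ± 0.252 of the beta-chain TPM at bent cotyledon, against 88.7% ± 1.398 at preglobular (adjusted p = 1.8e-05, permutation test).

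The 2 importers differed in timing. CUE1 brings phosphoenolpyruvate into the plastid and GPT1 glucose 6-phosphate. CUE1 averaged 312 ± 13.1, 313 ± 13.2, 304 ± 14.3, 359 ± 9.09, 594 ± 157, 656 ± 122, 792 ± 39.7 and 369 ± 71.1 CPM from preglobular to mature green, and GPT1 67.1 ± 9.31, 51.4 ± 1.45, 52.3 ± 5.32, 45.2 ± 2.05, 57.8 ± 8.62, 58.8 ± 12.9, 97.9 ± 10.3 and 146 ± 8.63 CPM (SD, n = 3). CUE1 rose at early torpedo (log2 difference 0.73, SE 0.16, adjusted p = 0.00487), a call lost on log2 TPM, and fell at mature green (log2 difference −1.10, SE 0.16, adjusted p = 7.04e-06). GPT1 was not called at early torpedo (log2 difference 0.35, SE 0.14, adjusted p = 0.085) and rose at bent cotyledon, with 106, 102 and 86.2 CPM against 73.7, 52.7 and 50.1 CPM at late torpedo (log2 difference 0.73, SE 0.14, adjusted p = 0.000534). It rose again at mature green, with 142, 140.0 and 156 CPM against 106, 102 and 86.2 CPM at bent cotyledon (log2 difference 0.58, SE 0.14, adjusted p = 0.00175), but on library totals and on log2 TPM that difference was negative and not called. GPT1 held 28.3% ± 5.08 of the TPM of the pair at mature green, against 8.03% ± 0.311 at late torpedo (adjusted p = 1.8e-05, permutation test). ENO1, the plastid enolase, averaged 151, 130.3, 136, 149, 192, 225, 362 and 168 CPM over the stages.

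WRI1 was highest at bent cotyledon, and with TMM factors it was called higher at a single step, the one into that stage. On library totals and on log2 TPM it was also called higher at early heart against globular. It averaged 46.6 ± 2.30, 33.9 ± 2.70, 51.7 ± 15.6, 70.4 ± 11.6, 97.9 ± 32.9, 129 ± 7.11, 278 ± 80.3 and 196 ± 24.3 CPM from preglobular to mature green (SD, n = 3). It had 334, 314 and 186 CPM at bent cotyledon, against 122, 136 and 127 CPM at late torpedo, without overlap (log2 difference 1.11, SE 0.23, adjusted p = 0.00102). At early torpedo it had 104.2, 62.3 and 127 CPM, against 60.2, 68.1 and 83.0 CPM at late heart, with overlap and no call (log2 difference 0.48, SE 0.23, adjusted p = 0.148), the step at which 24 of its fellow members were called higher with TMM factors. On library totals 14 members were called higher at early torpedo, and on log2(TPM + 1) 7 were. WRI1 was not tested against the other members. At mature green it had 222, 189 and 175 CPM, again not called against bent cotyledon (log2 difference −0.51, SE 0.23, adjusted p = 0.0718), while 25 other members fell. On library totals its log2 difference at that step was −1.30 and was called lower. Its transcript model 3 held 45.8% ± 5.14 of the locus TPM at mature green and 32.5% ± 0.9958 at bent cotyledon, where model 5 held 32.85% ± 5.50. Over the stages the mean share of model 3 ran from 27.0% at late heart to 49.5% at preglobular, and no test was made.

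The levels of 5 known upstream regulators of the seed programme stand beside that of WRI1. LEC1 averaged 340.2, 312, 243, 201, 189, 122, 33.0 and 0.129 CPM and LEC2 30.0, 13.3, 11.8, 8.87, 6.89, 6.08, 2.22 and 0.106 CPM from preglobular to mature green, so both were highest at preglobular. L1L, a close relative of LEC1, averaged 21.3, 6.77, 13.9, 25.6, 161, 258, 736 and 144 CPM and peaked with the enzymes at bent cotyledon (log2 difference 5.11, SE 0.41, adjusted p = 7.12e-10 against preglobular). FUS3 averaged 19.2, 22.4, 28.4, 34.3, 44.9, 53.9, 61.5 and 94.3 CPM and ABI3 29.9, 70.5, 117, 123, 93.7, 109, 234 and 297 CPM, both highest at mature green. Of the 5, 3 were called higher and 2 lower at bent cotyledon against preglobular, where 34.3% of all loci were called higher and 33% lower.

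The fall at mature green depends in size on how libraries are scaled. The TMM factors there were 0.5527 to 0.6281, against 0.8383 to 1.3016 at the other stages. On library totals the median log2 difference of all tested loci between mature green and bent cotyledon was −0.77 and that of the members −1.81, and on log2(TPM + 1) they were −0.44 and −1.75. The members' median lay below that of all loci on each of these scales. On library totals 32 members were called lower and 0 higher, so the rises of SSI2, AAD1 and GPT1 are relative to TMM scaling. AAD5, FATA1 and PKp-beta2, which were not called with TMM factors, also had negative signs there. Mature green replicate 3 was the lowest of its stage for 33 of 35 members, against 38.7% of all loci, and without it 3 members were called higher and 21 lower. Libraries of other stages also stood apart over the members: preglobular replicate 3 was the lowest of its stage for 28 of them, early heart replicate 1 the lowest for 26 and replicate 3 the highest for 27, late heart replicate 3 the highest for 29, and late torpedo replicate 1 the highest for 28, against 33.4%, 37.6%, 33%, 36.3% and 41.4% of all loci. Early torpedo replicate 2 was the lowest for 16 and the highest for 17, against 44.5% and 41.6%. The part of these libraries in the results beyond leaving each out was not tested.

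Related genes outside the membership were counted in the same fit. Of 19 other genes of plastid fatty acid synthesis and supply, 18 passed the filter (PPT2 did not), and 12 were higher and 4 lower at bent cotyledon against preglobular (34.3% and 33% of all loci), with a median log2 difference of 1.41. They included the carrier ACP2, the beta subunit PDH-E1b-2, the thioesterase FATA2, and the BADC proteins, which are known to restrain acetyl-CoA carboxylase. BADC3 averaged 295 ± 10.1 CPM at bent cotyledon, against 35.1 ± 3.80 CPM at preglobular (log2 difference 3.07, SE 0.17, adjusted p = 4.88e-12). The desaturase gene AAD6 averaged 3.91, 13.7, 15.6, 34.9, 154, 51.0, 326 and 438 CPM from preglobular to mature green. GPT2, a second glucose 6-phosphate importer, averaged 0.331, 0.603, 0.296, 0.652, 7.65, 7.88, 106 and 314 CPM. GPT2 was thus under 1 CPM until late heart and highest at mature green. It had 402, 115 and 426 CPM at mature green, against 151, 139 and 27.3 CPM at bent cotyledon, with overlap (log2 difference 1.58, SE 0.57, adjusted p = 0.0223). AAD3, AAD4, WRI3 and WRI4 were the 4 lower ones at bent cotyledon, all with a mean of at most 5.78 CPM at preglobular. At mature green 6 of the 18 were higher and 8 lower than at bent cotyledon, with a median of −0.33, against 27.2% and 28.2% of all loci.

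Mitochondrial counterparts of the same steps were more often lower than higher at bent cotyledon, and genes listed as cytosolic counterparts went both ways. Of 12 mitochondrial counterparts, 1 was higher (mtKAS) and 8 were lower at bent cotyledon against preglobular (34.3% and 33% of all loci), with a median log2 difference of −0.88, against 0.02 for all tested loci. The mitochondrial E1 alpha gene IAR4 averaged 28.1 ± 1.54 CPM at bent cotyledon, against 149 ± 15.4 CPM at preglobular (SD, n = 3 each), a log2 difference of −2.40 (SE 0.15, adjusted p = 2.27e-11). The mitochondrial carrier mtACP2 averaged 177 ± 4.60 CPM at bent cotyledon, against 633 ± 45.5 CPM at preglobular (log2 difference −1.84, SE 0.12, adjusted p = 5.76e-11). Of 4 genes listed as cytosolic counterparts, ACC1, the cytosolic acetyl-CoA carboxylase, was higher (log2 difference 1.68, SE 0.21, adjusted p = 5.82e-07). ACC2 and ENO3 were lower and the enolase ENO2 was not called. The compartment of the ACC2 product was not examined, so its fall is not read as that of a cytosolic gene. Of the 12 mitochondrial genes 5, and of the 4 genes listed as cytosolic 2, were lower at mature green against bent cotyledon and none was higher, against 28.2% and 27.2% of all loci. The plastid and mitochondrial sets were not tested against each other.

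**Figure D5:**
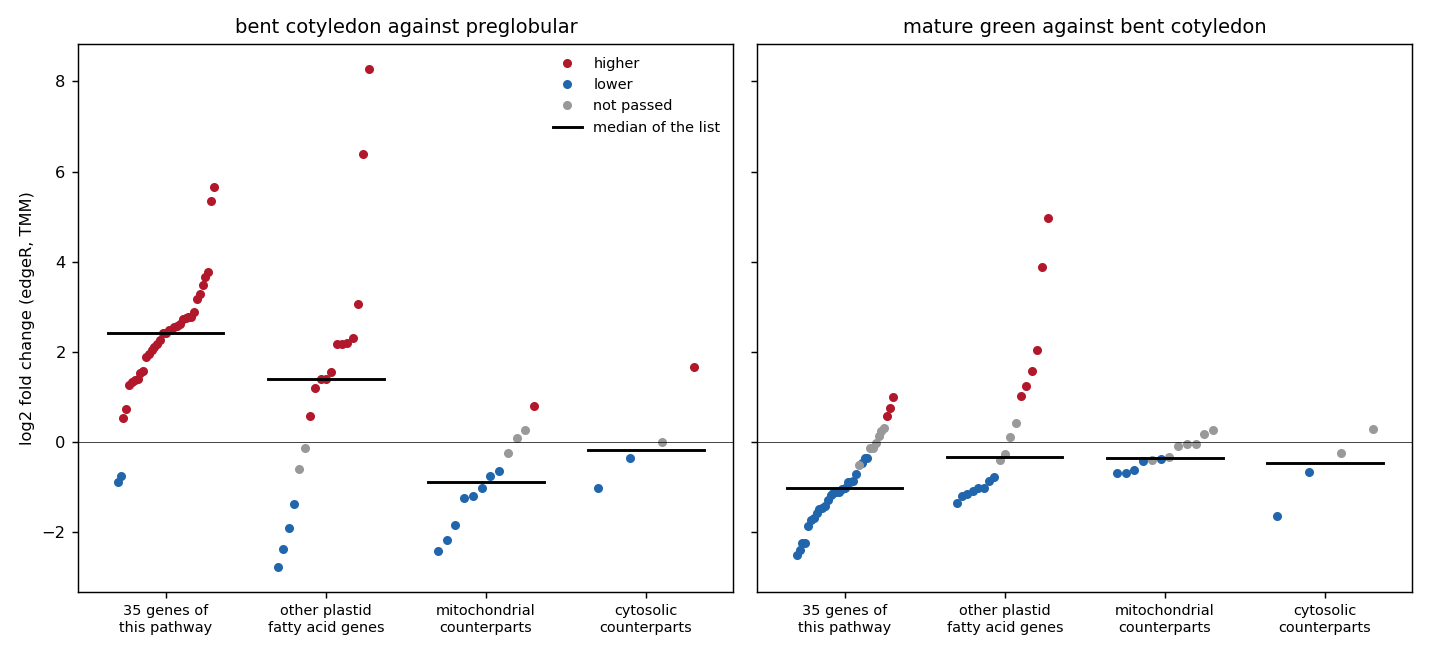
Log2 fold change of bent cotyledon over preglobular (left) and of mature green over bent cotyledon (right) for the 35 genes and 3 related lists; each point is a gene, red where edgeR called it higher, blue where lower and grey where it did not pass, with the list's median as a line. The 35 genes lie mostly above 0 on the left (median 2.43) and below 0 on the right (median −1.003), and the mitochondrial counterparts mostly below 0 on the left (median −0.88).

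Outside all these lists, the genes whose profile was most like the mean profile of the members were sought by Pearson correlation over the 8 stage means of log2(CPM + 1). They were ATNTT2, which imports ATP into plastids (r = 0.996), GDPD6, a glycerophosphodiester phosphodiesterase (r = 0.991), IGPD, an enzyme of histidine synthesis (r = 0.991), ACX4, an acyl-CoA oxidase (r = 0.988), and KAB1, a potassium channel beta subunit (r = 0.984). These values rest on 8 points that share their libraries with the members, and carry no test.

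Bent cotyledon RNA was also prepared at several inputs and with other kits, to compare ways of making the libraries. With Smart-seq2, edgeR's quasi-likelihood test called 0 of 35 members at 1 ng, 0.5 ng and 0.1 ng, each against 5 ng (3 replicates each), where 0%, 0% and 0.205% of 17090 loci were called lower and 0% higher. At an unadjusted p under 0.05 there were 0, 0 and 1 members, and neither DESeq2 nor any other alternative called one. This fit did not pair the inputs made from the same RNA, while the alternative with the replicate number as a block did. Replicate 3 at 0.1 ng held only 1021484 estimated counts. Log2 differences of the members ran from −0.14 to 0.16 at 1 ng, from −0.25 to 0.09 at 0.5 ng and from −0.40 to 0.40 at 0.1 ng. No order of inputs is read from these differences. Each other kit had 1 library per input, so no test was made. With the Ovation kit, 33 of 35 members lay at least 2 below Smart-seq2 on the log2(TPM + 1) scale at all 4 shared inputs and 0 above, against 40.6% and 0.065% of all loci. With the SMARTer kit 0 of 35 lay below and 0 above, against 0.68% and 0.202%. Rows with no locus, which also take a part of the TPM, held 22.7 to 25% of the Ovation counts at these inputs. In the Smart-seq2 bent cotyledon libraries they held 3.26 to 6.46%, and the part of this in the kit differences was not tested.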

How the data were processed

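Reads were handled with kallisto 0.43.1 and cutadapt 1.9.1 on build TAIR10, per the submitters' processing notes, and settings are not given in the sources used here. For each transcript the authors deposited estimated counts, which are not scaled to depth, and TPM, scaled by length to a fixed sum per table. Kallisto splits reads that fit several transcripts by likelihood, and values of close paralogs (the ACP, AAD and PKp genes) are uncertain, and strand is not stated. Rows with no locus (96 spike-ins and 1064 other RNAs), up to 7.18% of the counts of a stage library, were left out.

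Counts and TPM were summed per locus, and counts were rounded. The 24 libraries of the stages entered 1 fit with stage as its term in edgeR 4.0.16 (filterByExpr, TMM factors, quasi-likelihood test), with Benjamini-Hochberg adjustment over all 21014 tested loci at 0.05. The later stage was set over the earlier, and the bent cotyledon inputs were fitted apart (17090 loci). The SE printed with an edgeR log2 difference is its absolute size divided by the square root of the quasi-likelihood F statistic. On simulated counts of the real loci, the script called 79 of 100 loci changed 2-fold and 99 of 100 changed 4-fold. Shares of TPM between related members were tested with 100000 permutations of the 24 libraries over the stages, and 11 were tested. Related lists, markers of endosperm and seed coat, and any member could be named, the 3 largest called differences each way first.

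Members, lists and tests were chosen with earlier results of these data known. Alternatives were RLE size factors, library totals, no filter, DESeq2 1.42.0, limma 3.58.1 on log2 TPM with a pseudocount of 1 or 0.1, the replicate number as a block, fits restricted to the groups compared, 1 ng libraries for bent cotyledon, and each library left out. The labels tie the numbers of the input libraries to 1 RNA each, and their residuals correlated at 0.163 on average between the same numbers (lowest 0.041).

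Promoter windows came from the RefSeq genome and annotation of assembly TAIR10.1, whose transcript lengths equalled the deposited ones for 54 of 54 member transcripts and for 99.59% of those found in both. Versions were R 4.3.3, Python 3.11.15, pandas 2.3.3, scipy 1.17.1, matplotlib 3.10.9 and numpy 2.4.6.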

Additional observations from a re-analysis of the deposited data

How the results depend on the processing

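Other scalings moved the median of all tested loci by over 0.1 on the log2 scale at several comparisons, and the limma fits change the test along with the scale. At globular against preglobular, members called higher and lower numbered 13 and 1 on library totals, 21 and 1 with limma on log2(TPM + 1) and on log2(TPM + 0.1), and 9 were higher when only the groups compared were fitted. At early heart against globular, 22 were higher on library totals, 27 and 24 with limma at pseudocounts 1 and 0.1, and 16 higher and 1 lower in the fit of only the groups compared. The median of all loci was 0.27 and 0.29 on library totals at these 2 steps, and 0.35 and 0.24 on log2(TPM + 1). At late heart against early heart, 1 was higher with no filter and 1 with limma at pseudocount 0.1, 11 with DESeq2 and 20 in the fit of only the groups compared. At early torpedo against late heart, 14 were higher and 1 lower on library totals, and 7 higher and 1 lower with limma at both pseudocounts. DESeq2 called 3 higher at late torpedo against early torpedo. At mature green against bent cotyledon, 0 were higher on library totals and with limma at both pseudocounts. At mature green against preglobular, 9 were lower on library totals and 7 with limma at both pseudocounts, where the median of all loci was −0.54 and −0.26. With a difference of 1 or more, 1 member (LPD1) was lower with the SMARTer kit. The cause of these moves was not tested.

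Signs that turned are given on the log2 scale for members called with TMM factors or under the alternative; signs of members called under neither also turned. With limma at pseudocounts 1 and 0.1, KASIII was 0.0865 and 0.088 at globular against preglobular, and at early torpedo against late heart KASII was −0.0634 and −0.0639, SSI2 −0.0766 and −0.0775, and PKp-alpha −0.0101 and −0.0101. At mature green against bent cotyledon, on library totals and then with limma at pseudocounts 1 and 0.1, AAD5 was −0.49, −0.43 and −0.43, FATA1 −0.55, −0.47 and −0.48, PKp-beta2 −0.66, −0.50 and −0.58, and GPT1 −0.23, −0.16 and −0.16, and AAD1 was −0.0475 on library totals. At mature green against preglobular, in the same order, MCAT was −0.051, −0.0362 and −0.0384, KASIII −0.36, −0.31 and −0.32, KAR −0.53, −0.52 and −0.52, AT2G22230 −0.0748, −0.0733 and −0.0749, AT5G10160 −0.55, −0.57 and −0.57, and EMB3003 −0.0613, −0.0381 and −0.0394, while on library totals LTA2 was −0.40 and CUE1 −0.35.

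Leaving out each library of the groups compared in turn gave 5 higher and 3 to 5 lower at globular, 7 to 9 higher at early heart, 0 to 2 at late heart, 17 to 25 at early torpedo, 0 to 2 at late torpedo, 17 to 21 higher and 2 lower at bent cotyledon, and 2 to 3 higher and 21 to 25 lower at mature green, each against the stage before. The count at late torpedo was 2 (BCCP2 and PKp-alpha) without early torpedo replicate 2. Mature green against preglobular gave 21 to 26 higher and 2 to 3 lower. The 33 higher and 2 lower at bent cotyledon against preglobular, the 35 changed over the stages and all 11 shares (highest adjusted p = 0.00136, permutation test) were past the threshold in each of these settings. With the replicate number as a block, SSI2 at early torpedo against late heart (adjusted p = 0.0683) and PKp-beta1 at mature green against bent cotyledon (adjusted p = 0.0576) lost their calls in edgeR's quasi-likelihood test, and no count moved by over 1.5 times. The numbers of the stage libraries do not pair them: libraries of equal number had residuals whose mean correlation was −0.0149.

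Depth limits the lowest members most, AAD1 having 28 counts in its lowest library. Amplified reads are not independent molecules. With 3 libraries a stage, the edgeR p-values of the stage fit rest on a spread estimated over all 24 libraries and moderated across loci. They do not measure the spread of the compared stages alone. At mature green the spread between libraries may lack differences between collections of embryos.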
